A study of Drosophila melanogaster with 24 samples.

Results

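The genes described here are 4 that start EGF receptor signalling in Drosophila melanogaster: the receptor gene Egfr, the ligand genes spi (spitz) and vn (vein), and rho (rhomboid), the gene of the protease that releases the ligand. Probe sets were chosen by their gene symbol in the annotation of the Affymetrix DrosGenome1 array, without using any measured value. Of the 4 genes, 2 had a named probe set, 1 for spi (143573_at) and 2 for Egfr (the brighter, 151735_at, and the dimmer, 142966_at). These are 3 of the 13966 probe sets of the array, which name 10845 genes by a single symbol. For vn and rho no probe set carried the symbol, and they were not analysed here. All 3 probe sets reached a log2 value of 5 in all 24 arrays, so the filter on low values removed none of them. Sequences and genome positions were not used here.

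The study set embryos with activated Notch, activated Ras or both against control embryos, to find targets that the Notch and receptor tyrosine kinase pathways share. Every embryo had a mother homozygous for arm-GAL4, in which the armadillo promoter drives the yeast activator GAL4 at moderate level in all tissues, so the control embryos carried GAL4 too. The fathers were UAS-NotchICD (the intracellular, active part of Notch), UAS-Ras1V12 (an active form of the GTPase Ras85D), homozygous for both transgenes, or w1118. The offspring are called Notch, Ras, combined and control embryos. Each cross was collected in a late window, from 7 h after egg lay to 8 h, and in an early window that began at 5 h 45 min and ended at 6 h 45 min. Each collection pooled about 500 whole embryos, and 3 independent experiments per cross and window gave 8 groups of n = 3 arrays. No probe set named for the Notch or Ras85D gene was used here, so the labels were not checked against the transgenes. In whole embryos, fewer cells of a type and less RNA per cell cannot be told apart.

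Spi is made as an inactive precursor anchored in the membrane. The chaperone Star carries it out of the endoplasmic reticulum and the Rhomboid protease cuts it, and the released ligand binds Egfr on neighbouring cells. Vein is a weaker, neuregulin-like ligand that is secreted without that cut. Egfr signals through Ras to MAP kinase, which switches on target genes that include inhibitors of the same pathway, such as aos (argos) and sty (sprouty). In the embryo the pathway patterns the ventral ectoderm, the midline and the trachea, among other tissues.

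Levels are deposited log2 values, changes are differences of group means on that log2 scale with the standard error (SE) of a limma fit over all 24 arrays, and a gene is said to have risen or fallen only at a Benjamini-Hochberg adjusted p under 0.05 over the 5736 rows tested. The SE is pooled over the 8 groups and is therefore the same in both windows. This fit has no block for the replicate number. Results of a fit with such a block, which pairs arrays of the same number within a window, are named as such. Overlap of arrays between groups is given as a description. The share of all rows without overlap was not counted, so overlap cannot show whether a gene stands out. Medians per array were 4.03 to 4.21, and each array had 5369 to 5677 probe sets at a value of 5 or more. Over all rows the median change was between -0.04 and 0.07 in every comparison, close to 0. Of 40 tested markers of 12 embryonic tissues, 32 reached 5 in all 3 late control arrays and 32 in all 3 early control arrays.

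The ligand gene spi rose in all 3 transgenic crosses in the late window. The change was 1.67-fold in combined embryos, 1.49-fold in Ras embryos and 1.30-fold in Notch embryos, each against control. In the early window no rise passed the test. Levels were high throughout, and the 8 group means spanned less than 1 log2 unit.

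In late embryos spi read 11.25, 11.14 and 11.23 on the combined arrays. The Ras arrays read 11.05, 11.05 and 11.03, the Notch arrays 10.88, 10.85 and 10.81, and the control arrays 10.30, 10.43 and 10.68. The control arrays were the lowest and the most scattered, and no transgenic array overlapped with them. The 3 transgenic groups also did not overlap with one another, with combined above Ras and Ras above Notch.

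The limma fit gave a log2 change of 0.74 ± 0.11 (SE, n = 3 per group) for combined against control, with an adjusted p of 6.5e-05. For Ras against control the change was 0.57 ± 0.11, with a limma adjusted p of 0.0058. For Notch against control it was 0.38 ± 0.11, with a limma adjusted p of 0.028. The 3 comparisons share their control arrays, so they are not independent of each other. With Egfr represented by its brighter probe set and without the replicate block, spi was the 1 of the 2 genes called in these comparisons. Of all rows, 15.1% were called for combined, 2.16% for Ras and 13.7% for Notch against control. With the replicate number as a block the calls were 281 rows for Ras, against 124 without it, and 1231 rows for Notch, against 787 without it. The share of rows with a larger change than spi was 7.57% for combined, 3.4% for Ras and 19.4% for Notch.

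The combined and Ras calls of spi held when each of the 6 arrays was left out in turn, with limma adjusted p up to 0.00081 and 0.043. The Notch call did not, since limma kept it in 1 of 6 such fits, the one without the third late control array, and the change ranged from 0.29 to 0.49. A fit on only the 6 arrays compared ended the Ras call, with a limma adjusted p of 0.17, and the Notch call, with 0.12.

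**Figure D1:**
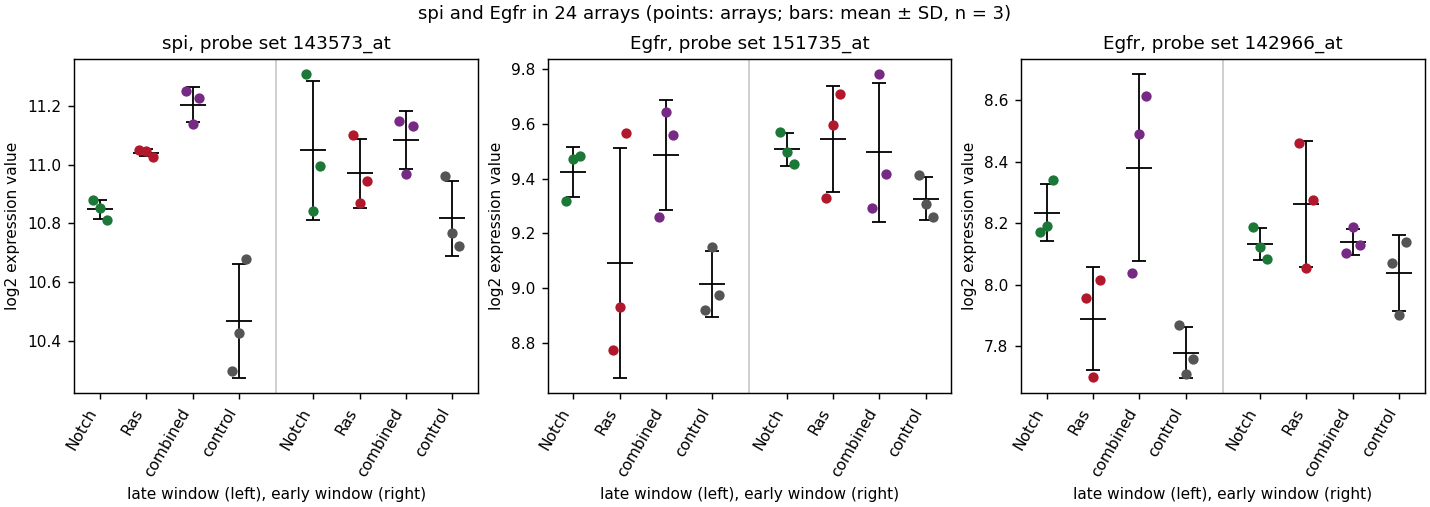
Log2 expression value (vertical axis) of the spi probe set and the 2 Egfr probe sets on every array, by cross, with the late window left and the early window right in each panel. Points are arrays and bars are the mean ± SD (n = 3); the late control arrays of spi lie between 10.30 and 10.68, below all late transgenic arrays.

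Of the ladder among the late transgenic groups, combined was tested against Ras and against Notch. The step from Notch to Ras was not tested. Combined embryos exceeded Ras embryos by 0.16 ± 0.11 (SE) log2 units, with a 95% confidence interval of -0.07 to 0.40 and a limma adjusted p of 0.45. Combined embryos exceeded Notch embryos by 0.36 ± 0.11, with a limma adjusted p of 0.17, and of 0.036 with the replicate block. Of all rows, 11.3% were called for combined against Ras and 1.83% for combined against Notch (1072 rows with the block against 648 without it, and 211 against 105), and without the block spi was called for neither, nor was Egfr at its brighter probe set.

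In early embryos spi read 11.31, 10.84 and 11.00 on the Notch arrays. The Ras arrays read 11.10, 10.87 and 10.94, the combined arrays 11.15, 10.97 and 11.13, and the control arrays 10.96, 10.77 and 10.72. The combined arrays all lay above the control arrays, the lowest of them by a narrow margin, while some Notch and Ras arrays lay within the control range. The first array of each cross was the highest of its group.

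The early changes of spi against control were 0.23 ± 0.11 (SE) for Notch, 0.15 ± 0.11 for Ras and 0.27 ± 0.11 for combined embryos. Their limma adjusted p were 0.42, 0.9995 and 0.20. Neither spi nor Egfr was called early in any of the 3 comparisons, and the share of rows called was 5.42% for Notch, 0.366% for Ras and 6.96% for combined (495 rows with the replicate block against 311 without it, 44 against 21, and 729 against 399). At an unadjusted limma p under 0.05, spi passed for combined embryos alone, with 0.030. Early combined embryos exceeded Notch embryos by 0.03 ± 0.11 and Ras embryos by 0.11 ± 0.11. No member was called in these early comparisons either, where 0.227% and 11% of rows were (46 rows with the block against 13 without it, and 1128 against 632).

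Ranked by mean level, spi was highest in late combined embryos (11.21) and lowest in late control embryos (10.47). Between them came early combined (11.08), early Notch (11.05), late Ras (11.04), early Ras (10.97), late Notch (10.85) and early control embryos (10.82). Arrays of neighbours in this order overlapped except between late and early control embryos, whose ranges lay apart and whose means differed by 0.35.

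In the late window spi fell by 0.35 ± 0.11 (SE) log2 units relative to the early window in control embryos, with a limma adjusted p of 0.024. The fall was called in 3 of 6 fits that left out 1 array. It was lost without the first early control array and without the first or the second late control array, and the change ranged from -0.46 to -0.26. The late minus early change was -0.20 ± 0.11 in Notch, 0.07 ± 0.11 in Ras and 0.12 ± 0.11 in combined embryos, with limma adjusted p of 0.20, 0.68 and 0.43. Of all rows, 28.4% changed with time in Notch, 28.4% in Ras, 33.3% in combined and 31.3% in control embryos. The late control arrays were thus the low point of spi, and they are the denominator of all 3 late comparisons.

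Whether the transgene effects on spi differed between windows was tested as the late effect minus the early effect. This difference was 0.15 ± 0.16 (SE) for Notch, 0.42 ± 0.16 for Ras and 0.47 ± 0.16 for combined embryos. Their limma adjusted p were 0.89, 0.999 and 0.16, and with the replicate block the combined difference had 0.040. The unadjusted limma p were 0.37, 0.017 and 0.0082. Of all rows, 1.6%, 0.0697% and 2.55% were called for the Notch, Ras and combined difference (222 rows with the block against 92 without it, 18 against 4, and 338 against 146), and no member was without the block.

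Both transgenes together gave less than the sum of their single effects on spi by estimate, but not beyond error. The interaction, the combined effect minus the sum of the Notch and Ras effects on the log2 scale, was -0.22 ± 0.16 (SE) late and -0.12 ± 0.16 early. The 95% confidence intervals were -0.55 to 0.12 and -0.45 to 0.22, and the limma adjusted p were 0.998 and 0.96. Neither gene passed an unadjusted limma p under 0.05 for the interaction, which was called for 0.227% of rows late and 0.139% early (28 rows with the block against 13 without it, and 36 against 8).

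The receptor gene Egfr had higher late values in Notch and combined embryos than in control embryos at both of its probe sets. The arrays did not overlap, which was not counted over all rows. Without the replicate block the dimmer probe set alone passed the test. With it the brighter one passed too for combined embryos, with a limma adjusted p of 0.024. In Ras embryos neither probe set passed the test against control in either window. The brighter probe set, with the higher mean, stood for Egfr in the fit over all genes, and the other was put in its place in a second fit.

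At the brighter probe set the late arrays read 9.32, 9.47 and 9.48 in Notch embryos and 9.26, 9.64 and 9.56 in combined embryos. They read 8.77, 8.93 and 9.57 in Ras embryos and 8.92, 9.15 and 8.97 in control embryos. All Notch and combined arrays lay above the control arrays. The Ras arrays were split, with 1 below the control range, 1 within it and the third above every control and Notch array.

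At the dimmer probe set the late arrays read 8.17, 8.19 and 8.34 in Notch embryos and 8.04, 8.49 and 8.61 in combined embryos. They read 7.96, 7.70 and 8.01 in Ras embryos and 7.87, 7.71 and 7.76 in control embryos. Again no Notch or combined array overlapped with control, and the Ras arrays did. The first combined array was the lowest of its group at both probe sets, and the third Ras array was the highest of its group at both.

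The late change of Egfr at the brighter probe set was 0.47 ± 0.16 (SE) for combined, 0.08 ± 0.16 for Ras and 0.41 ± 0.16 for Notch against control. The limma adjusted p were 0.060, 0.98 and 0.11, and that of combined was 0.024 with the replicate block. Of 6 fits that left out 1 array, 1 called the combined change, the fit without the first combined array (0.036). Over these fits the limma adjusted p reached 0.20. At the dimmer probe set the changes were 0.60 ± 0.13 (1.52-fold), 0.11 ± 0.13 and 0.46 ± 0.13 (1.37-fold), with limma adjusted p of 0.0023, 0.95 and 0.020. Without each array in turn the combined call at the dimmer probe set held in 6 of 6 fits, while the Notch call was lost without the second or the third late control array or the third Notch array, and under array median centring (0.41, limma adjusted p of 0.065). A fit on only the arrays compared gave the combined change there a limma adjusted p of 0.060. For Ras, the 95% confidence interval at the brighter probe set was -0.27 to 0.42 and at the dimmer probe set -0.16 to 0.38.

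Late combined embryos were also above Ras embryos, by 0.40 ± 0.16 (SE) at the brighter probe set and 0.49 ± 0.13 at the dimmer probe set. The limma adjusted p was 0.14 at the first and 0.015 at the second. Of 6 fits that left out 1 array, 1 gave a call at the brighter probe set. It was the fit without the third Ras array, which stood apart (0.63, limma adjusted p of 0.0051). Over these fits the change ranged from 0.24 to 0.63, with limma adjusted p up to 0.47. At the dimmer probe set the lowest combined array, 8.04, lay just above the highest Ras array, 8.01, and the call was lost without the second or the third combined array or the second Ras array. Combined and Notch embryos differed by 0.06 ± 0.16 and 0.15 ± 0.13, neither of which was called.

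**Figure D2:**
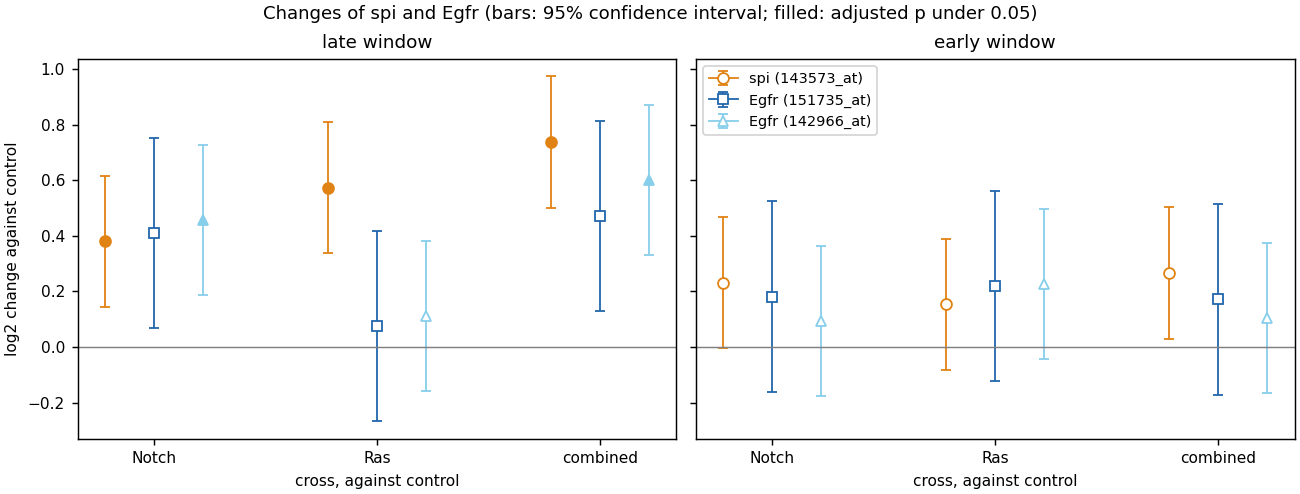
Log2 change against control (vertical axis) of spi and of both Egfr probe sets in each transgenic cross, late window left and early window right. Bars are 95% confidence intervals of the limma fit (n = 3 arrays per group) and filled symbols mark an adjusted p under 0.05; the filled symbols are spi in all 3 late comparisons and the dimmer Egfr probe set in late Notch and combined embryos.

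In the early window Egfr at the brighter probe set read 9.57, 9.50 and 9.45 in Notch, 9.33, 9.60 and 9.71 in Ras, 9.29, 9.78 and 9.42 in combined and 9.41, 9.31 and 9.26 in control embryos. At the dimmer probe set it read 8.19, 8.12 and 8.08 in Notch, 8.46, 8.05 and 8.27 in Ras, 8.10, 8.19 and 8.13 in combined and 8.07, 7.90 and 8.14 in control embryos. At the brighter probe set the Notch arrays lay just above the control range. The other early transgenic values overlapped with control in every cross, at either probe set. The early changes against control were between 0.17 and 0.22 (± 0.16 SE) at the brighter probe set and between 0.09 and 0.23 (± 0.13 SE) at the dimmer probe set. None was called, and none had an unadjusted limma p under 0.05.

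With time, Egfr fell in Ras embryos. The late minus early change was -0.45 ± 0.16 (SE) at the brighter probe set and -0.37 ± 0.13 at the dimmer probe set, with limma adjusted p of 0.044 and 0.036. In 6 fits that left out 1 array each, the brighter probe set kept the call in 2. It was lost without the second or the third early Ras array and without the first or the second late Ras array, and the change ranged from -0.69 to -0.30. The other probe set lost it without the first or the third early Ras array or the second late one. In Notch embryos the change was -0.08 ± 0.16 and 0.10 ± 0.13, in combined embryos -0.01 ± 0.16 and 0.24 ± 0.13, and in control embryos -0.31 ± 0.16 and -0.26 ± 0.13, none of which passed the test. Without the first late combined array, the combined change at the dimmer probe set was 0.41, with a limma adjusted p of 0.013. The late and early groups of control embryos did not overlap at either probe set, those of Ras embryos overlapped at the brighter one alone, and those of Notch and combined embryos overlapped at both.

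The mean level of Egfr at the brighter probe set was highest in early Ras embryos (9.55), then early Notch (9.51), early combined (9.50), late combined (9.49), late Notch (9.43), early control (9.33), late Ras (9.09) and late control embryos (9.01). At the dimmer probe set the order was late combined (8.38), early Ras (8.26), late Notch (8.23), early combined (8.14), early Notch (8.13), early control (8.04), late Ras (7.89) and late control embryos (7.78). Arrays of neighbours overlapped throughout both orders. The low end was the same at both probe sets, while late combined embryos moved from the middle to the top.

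No difference in the transgene effects on Egfr between windows, and no interaction, passed the test. The smallest unadjusted limma p among them was 0.013, for the combined effect at the dimmer probe set. Without the first late combined array that difference was 0.67, with a limma adjusted p of 0.031. Without any single control array it was not called, with limma adjusted p of 0.17 to 0.40. Late minus early, the combined effect differed by 0.30 ± 0.23 (SE) at the brighter probe set and by 0.50 ± 0.18 at the dimmer probe set, with limma adjusted p of 0.65 and 0.21. The late interaction was -0.01 ± 0.23 and 0.03 ± 0.18 at the 2 probe sets, and the early one -0.23 ± 0.23 and -0.22 ± 0.18.

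Across the 24 arrays the Egfr probe sets correlated with each other at r = 0.658, and at 0.284 after each group's mean was taken off. The ligand and receptor genes followed each other less closely, with r of 0.375 at the brighter probe set and 0.512 at the dimmer probe set. After group means were taken off, spi correlated with them at -0.177 and 0.0508. These are descriptions over arrays that share 8 group means.

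The GAPDH control measure differed between late groups, while the actin one varied less. The 3′ probe set of GAPDH exceeded its 5′ probe set by 1.61 ± 0.146 log2 units (SD, n = 3) in late Notch, 2.44 ± 0.456 in late Ras, 1.98 ± 0.579 in late combined and 3.17 ± 0.684 in late control embryos. In the early window the group means of this difference lay between 0.69 and 1.02, and for actin between 0.43 and 0.64 in all late groups. The late control arrays, where spi and Egfr were lowest, thus had the largest GAPDH difference. Among the 3 late transgenic groups, Notch embryos had the smallest GAPDH difference and the lowest spi. Ras embryos had the largest GAPDH difference of the 3 and the lowest Egfr at both probe sets. The part of this GAPDH measure in the results was not tested.

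Markers of several tissues that use EGF receptor signalling also moved between the late groups. The ventral midline list (2 of 3 markers measured, sli and wrapper) had mean levels of 7.41 to 8.01 per array in Notch, 5.51 to 6.19 in Ras, 7.83 to 8.15 in combined and 5.58 to 6.00 in control embryos. Of these 2, 1 rose in Notch embryos, none in Ras and 1 in combined embryos, each time wrapper. Over all rows 6.22%, 1.1% and 7.64% rose in late Notch, Ras and combined embryos. The gene sim, which defines the midline, was not analysed here. The tracheal list (3 of 4 measured) lay at 7.31 to 7.84, 6.86 to 7.41, 7.50 to 7.93 and 6.93 to 7.05 in the same order. Of these 3, 2, 1 and 2 rose in Notch, Ras and combined embryos, and btl, the tracheal FGF receptor gene, was among them in each.

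Mesodermal markers (3 of 5 measured) lay at 5.10 to 5.30 in Notch, 6.14 to 6.57 in Ras, 6.23 to 6.25 in combined and 4.99 to 5.29 in control embryos, and 1, 3 and 2 of the 3 rose in Notch, Ras and combined embryos, with 1 fall in Notch embryos. The neuroblast list (6 of 6 measured) lay at 5.05 to 5.30 in Notch, 7.40 to 7.90 in Ras, 5.18 to 5.32 in combined and 7.46 to 7.63 in control embryos, and 5 of its 6 markers fell in Notch and in combined embryos, none in Ras embryos. Over all rows 7.5%, 1.06% and 7.51% fell in late Notch, Ras and combined embryos. Not all of the 12 tissue lists are shown. Of 2 neuroectoderm column markers, 1 fell in late Notch and in late combined embryos (medians of -0.50 and -0.48), none in Ras embryos. The neuron, glia, hemocyte, amnioserosa and endoderm lists had late falls and no rises in Notch and combined embryos. The proneural and tendon lists had late calls in both directions. The part of these differences in the changes of spi and Egfr was not tested.

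Beside spi and Egfr, the other genes of the pathway were described in 3 lists. Of 12 other genes of ligands and of their processing, 6 had a named probe set and 5 passed the filter on low values: Krn, S, cni, rasp and sl. In late combined embryos 2 of these 5 rose and 1 fell, with a median change of 0.33 against 0.04 over all rows. Of all rows, 7.64% rose and 7.51% fell there. For Ras and for Notch against control in the late window none was called, where 2.16% and 13.7% of all rows were. The medians were 0.01 and 0.27 against 0.02 and 0.01 over all rows. With the replicate block, Krn and sl were called higher and cni lower in late Notch embryos. Of the 5736 rows, 591 were called higher and 640 lower in that fit.

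S encodes Star, the chaperone that moves the Spi precursor toward its protease. Late S read 9.79, 9.82 and 10.00 in combined, 9.52, 9.18 and 9.51 in Ras, 9.86, 9.30 and 9.48 in Notch and 9.39, 9.00 and 9.35 in control embryos. The combined arrays lay above all Ras and control arrays, and 1 Notch array reached them. S rose in combined embryos against control by 0.62 ± 0.14 (SE) late, with a limma adjusted p of 0.0037, and by 0.48 ± 0.14 early, with 0.044. The late call held in every fit that left out 1 array, and the early one was lost in 5 of 6. Against Ras, late combined embryos had 0.47 ± 0.14 more S, with a limma adjusted p of 0.035, a call lost without any single combined array or the second Ras array (up to 0.19).

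S also fell with time. The late minus early change was -0.54 ± 0.14 (SE) in Notch, -0.51 ± 0.14 in Ras and -0.42 ± 0.14 in control embryos, with limma adjusted p of 0.0071, 0.011 and 0.030. The control call was lost without the first or the third early or the second late control array, the Notch call without the second late Notch array, and the Ras call without the third early or the second late Ras array (limma adjusted p up to 0.16). In combined embryos the fall was not called.

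Krn (Keren) encodes a second ligand of the Spitz type that also needs the cut by a rhomboid protease. Late Krn read 5.75, 6.34 and 6.26 in Notch, 5.67, 6.14 and 5.83 in Ras, 6.06, 5.95 and 6.08 in combined and 5.62, 5.64 and 5.85 in control embryos. Krn rose with time by 0.90 ± 0.14 (SE) in Notch, 0.47 ± 0.14 in Ras and 0.73 ± 0.14 in combined embryos, with limma adjusted p of 7.3e-05, 0.019 and 0.00058. The Ras call was lost without the second or the third early or the second late Ras array (up to 0.12). In control embryos the change was 0.37 ± 0.14, called with the replicate block alone (limma adjusted p of 0.016). Against control, no cross changed Krn in either window without the block.

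The remaining 2 calls of the list against control were for sl, a phospholipase C gamma gene, and for cni (cornichon), an export factor for ligands of this type. In late combined embryos sl rose by 0.34 ± 0.11 (SE) and cni fell by 0.39 ± 0.13, with limma adjusted p of 0.042 and 0.047. Of 6 fits that left out 1 array, sl lost its call in 6 and cni in 5. With time cni rose in control embryos. That call was lost under array median centring (0.39, limma adjusted p of 0.053). It was also lost without the first early or the second or the third late control array (limma adjusted p up to 0.090).

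The feedback and target list had 8 genes, of which 7 had a named probe set and 6 passed the filter: aos, sty, aop, edl, Mkp3 and ed. In the late window 5 of 6 rose in combined, 4 of 6 in Ras and 3 of 6 in Notch embryos, and none fell in any cross. The median changes were 1.13, 0.87 and 0.60, against 0.04, 0.02 and 0.01 over all rows. Over all rows 7.64%, 1.1% and 6.22% rose. With the replicate block 6 of 6 rose in each, as did 667, 143 and 591 of the 5736 rows. The late Ras calls of aop, aos and sty were lost in a fit on only the arrays compared.

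The inhibitor gene aos encodes a secreted protein that binds Spi and keeps it from the receptor. Late aos read 6.75, 7.12 and 7.56 in combined, 6.41, 6.65 and 7.26 in Ras, 5.87, 6.24 and 6.24 in Notch and 5.44, 5.72 and 5.72 in control embryos. Every transgenic array lay above every control array. The change against control was 1.52 ± 0.21 (SE) for combined and 1.15 ± 0.21 for Ras, with limma adjusted p of 1.7e-05 and 0.0028, and 0.49 ± 0.21 for Notch, with 0.14. Combined embryos had 1.03 ± 0.21 more aos than Notch embryos (limma adjusted p of 0.0087), which was lost without the third combined array, with only the arrays compared and with 1 fit per window.

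The gene sty encodes Sprouty, an inhibitor inside the cell. Late sty read 9.26, 9.01 and 8.91 in combined, 8.96, 8.58 and 8.49 in Ras, 8.38, 8.14 and 8.38 in Notch and 7.82, 7.35 and 7.62 in control embryos. As for spi, the order was combined, Ras, Notch and control, although a combined array and a Ras array overlapped. It rose by 1.46 ± 0.14 (SE), 1.08 ± 0.14 and 0.70 ± 0.14 in the 3 crosses, and combined exceeded Notch by 0.76 ± 0.14 (limma adjusted p of 0.0028), a call lost with only the arrays compared (0.054) and with 1 fit per window (0.051).

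The other called genes of the list act on transcription or on the kinase. Late aop, the gene of the ETS-domain repressor Yan, rose by 1.20 ± 0.10 (SE) in combined, 0.78 ± 0.10 in Ras and 0.83 ± 0.10 in Notch embryos. Late edl, whose product binds the ETS factors of the pathway, rose by 1.05 ± 0.16 in combined and 0.96 ± 0.16 in Ras embryos. Mkp3, a MAP kinase phosphatase gene, rose by 0.58 ± 0.19 in late Notch embryos, with a limma adjusted p of 0.047 and a call lost in 5 of 6 fits without 1 array. Mkp3 was also among the 5 genes called higher in late combined embryos, a call lost in no fit without 1 array. In late Ras embryos it was called with the replicate block alone (0.51, limma adjusted p of 0.045).

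In the early window 3 of 6 rose in Notch, 1 in Ras and 3 in combined embryos, with medians of 0.40, 0.50 and 0.69 against -0.04, -0.01 and 0.01 over all rows. The genes were aop, edl and sty in Notch and combined embryos and aop in Ras embryos. With the replicate block 3, 3 and 5 rose. Over all rows 1.94%, 0.262% and 2.53% rose without the block, and 169, 26 and 308 of the 5736 rows with it. Without single arrays the Notch call of sty was lost in 5 of 6 fits, that of edl in 3, among them the one without the first Notch array, and the Ras call of aop in 3. Early edl was 9.91, 9.36 and 9.20 in Notch embryos, against 9.14, 8.78 and 8.88 in control embryos, and its first array, as for spi, was the highest.

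**Figure D3:**
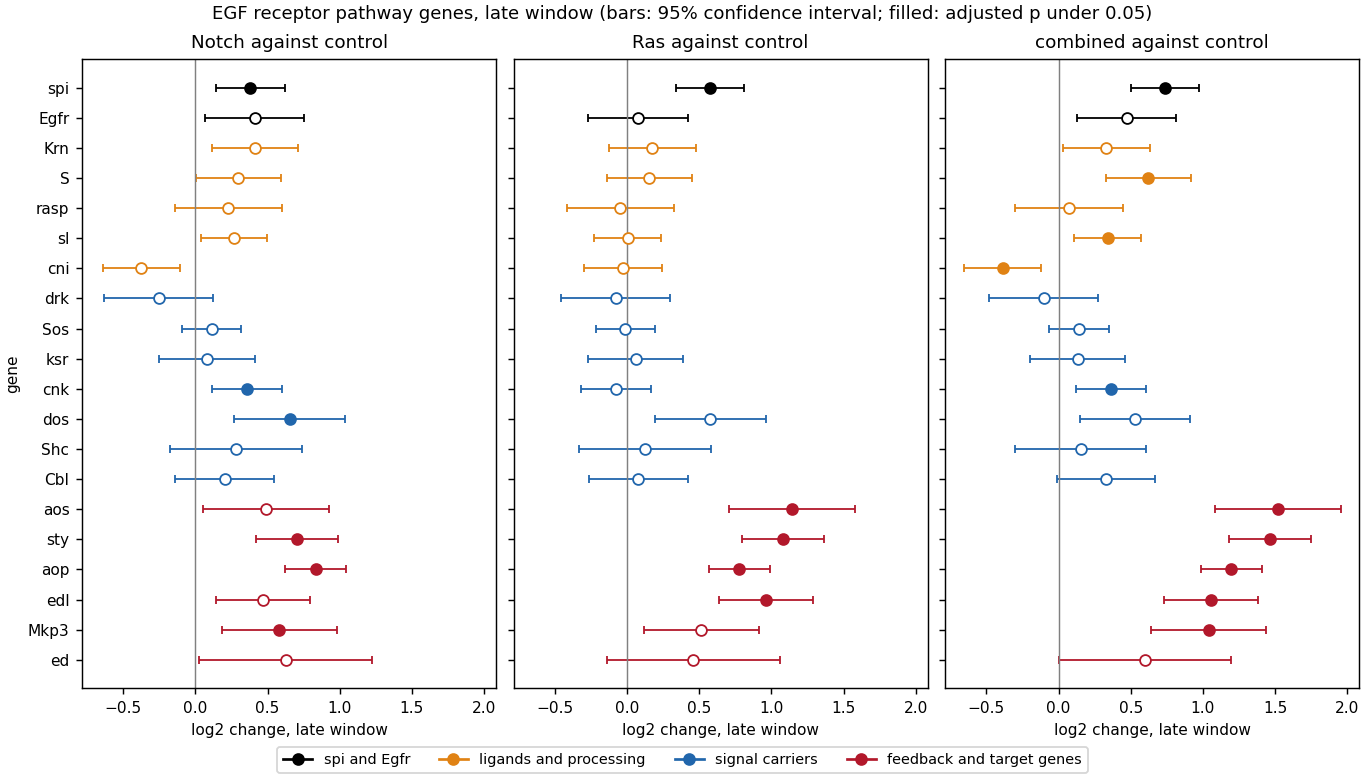
Log2 change against control in the late window (horizontal axis) of spi, Egfr (brighter probe set) and the measured genes of 3 pathway lists, 1 panel per cross. Bars are 95% confidence intervals of the limma fit and filled symbols mark an adjusted p under 0.05; the feedback and target genes reach 1.52 (aos, combined) while most signal carriers have intervals that include 0.

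The list of signal carriers held 13 genes that act between receptor and MAP kinase, of which 9 had a named probe set and 7 passed the filter: Cbl, Shc, Sos, cnk, dos, drk and ksr. In the late window 1 of 7 rose in combined, none in Ras and 2 in Notch embryos, with medians of 0.15, 0.06 and 0.20. Over all rows 7.64%, 1.1% and 6.22% rose, with medians of 0.04, 0.02 and 0.01. The scaffold gene cnk rose by 0.36 ± 0.12 (SE) in combined and 0.36 ± 0.12 in Notch embryos, with limma adjusted p of 0.039 and 0.047, calls lost in 5 and 4 of 6 fits without 1 array. The adaptor gene dos rose by 0.65 ± 0.18 in Notch embryos (limma adjusted p of 0.019), a call lost in 4 of 6 such fits. With the replicate block dos was also called higher in late Ras (0.58, limma adjusted p of 0.013) and late combined embryos (0.53, 0.0057). Late combined embryos also had 0.44 ± 0.12 more cnk than Ras embryos (limma adjusted p of 0.015), which was lost without the first combined or the second Ras array. With time dos fell by 0.50 ± 0.18 in Notch, 0.51 ± 0.18 in Ras, 0.50 ± 0.18 in combined and 0.86 ± 0.18 in control embryos, with limma adjusted p of 0.047, 0.043, 0.043 and 0.0012. The 3 transgenic calls were lost in 3, 4 and 5 of 6 fits without 1 array. In the early window no carrier was called in any cross against control, where 6.96%, 0.366% and 5.42% of all rows were for combined, Ras and Notch.

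The 3 tested genes whose levels followed spi most closely over the 24 arrays were edl (r = 0.880), Lrt (0.841), a gene of tendon cells, and comm2 (0.818), of the commissureless family that acts in axon guidance. After group means were taken off, their r was 0.530, 0.488 and 0.493. All 3 had their lowest group mean in late control embryos, as spi did. Group means of edl were 9.66 in late combined, 9.56 in late Ras, 9.07 in late Notch and 8.60 in late control embryos.

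**Figure D4:**
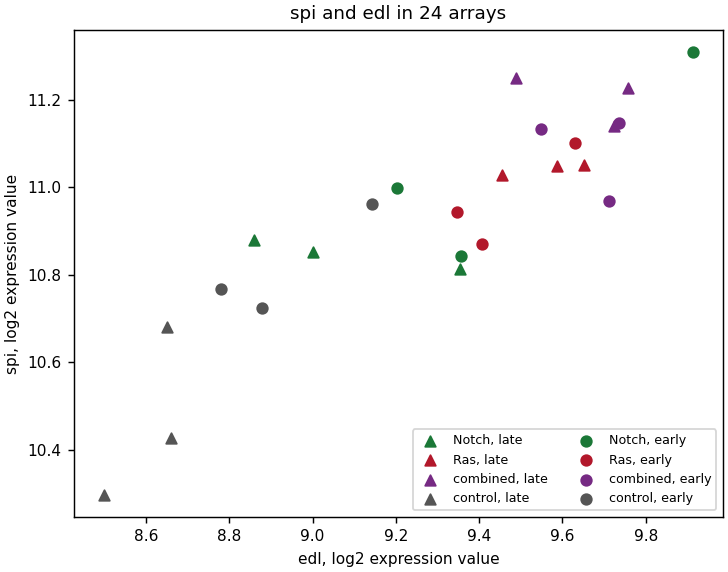
Log2 value of spi (vertical axis) against that of edl (horizontal axis) on the 24 arrays, coloured by cross, with triangles for the late and circles for the early window. The 3 late control arrays lie at the lower left, with spi between 10.30 and 10.68, and the late combined arrays toward the upper right. The early combined arrays lie near them, and the first early Notch array has the highest spi (11.31).

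For Egfr the 3 closest genes at each probe set were different, although lin and E(spl)mdelta-HLH were among the 10 closest at both. With the brighter probe set they were upd1 (r = 0.845), the gene of a JAK/STAT ligand, lin (0.829) and noc (0.825), a zinc finger gene. With the dimmer probe set they were E(spl)mdelta-HLH (0.798), a Notch target gene of the Enhancer of split complex, Epp (0.780) and dmt (0.765). After group means were taken off, these r were 0.739, 0.753, 0.793, 0.618, 0.709 and 0.566. The Notch target E(spl)mdelta-HLH averaged 10.7 ± 0.0891 (SD, n = 3) in late Notch, 9.85 ± 0.406 in late Ras, 10.6 ± 0.434 in late combined and 9.36 ± 0.0559 in late control embryos.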

How the data were processed

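RNA of 24 collections of whole embryos was measured on Affymetrix DrosGenome1 arrays. Per the submitters' processing notes, the deposited log2 values come from GCRMA, with limma for statistics, with versions not given in the sources used here, and GCRMA pulls dim probe sets toward a floor. From these log2 values, 44 control probe sets of 14010 were left out, a value of 5 or more in at least 3 arrays was required, and the brightest probe set on average stood for each gene, leaving 5736 rows (5020 with 1 symbol). Symbols came from the platform annotation, updated through the RefSeq table, and 49 had no match. limma 3.58.1 in R 4.3.3 fitted 8 group means over the 24 arrays (16 residual and 4.092 prior degrees of freedom). Benjamini-Hochberg adjustment was applied separately in each of 19 comparisons. The fit was tested on simulated data.

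Arrays with the same replicate number in a window deviated together in 36 of 36 pairs (r of 0.156 to 0.673), so the numbers were taken to pair the samples, and the replicate number was fitted as a block within each window as an alternative. The other alternatives were no filter or a stricter one (6), array median centring, quantile normalisation, an intensity trend, 1 fit per window, only the arrays compared, the other Egfr probe set, and each array left out. The members, lists and alternatives were chosen with earlier results of these data known. From each list the text names up to 4 called genes by size for the comparisons it describes. Other calls are not named, among them those of feedback genes with time and of aop for late combined against Ras embryos. The genes added beyond that rule were chosen after their values were seen. They are the block calls of Krn, sl, cni and dos, the late combined and block calls of Mkp3, and the genes listed as tested. The genes most like a member are the 3 with the highest Pearson r. With n = 3 arrays per group, their number limits the precision of every estimate.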

Additional observations from a re-analysis of the deposited data

Results flagged for a closer look

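Only spi, Egfr at its brighter probe set and the tested genes of the 3 pathway lists were searched here. Of these, the effect of both transgenes differed between windows for 3 genes with the replicate block, by a test of the difference itself. Of all 5736 rows, 338 were called for this difference with the block and 146 without it. The late minus early combined effect was 0.47 log2 units for spi (limma adjusted p of 0.040), 0.86 for the inhibitor gene aos (0.028) and 0.64 for the inhibitor gene sty (0.0064). Without the block their limma adjusted p were 0.16, 0.16 and 0.093, and none was called. For spi the difference lay between 0.39 and 0.58 when each of the 12 arrays was left out of the fit without the block, and its limma adjusted p between 0.054 and 0.41. The late control arrays, low for spi, enter this difference.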

How the results depend on the processing

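The late calls of spi for combined embryos kept their direction and side of the threshold under every alternative run. For Ras the call was lost in the fit on only the arrays compared (0.57, limma adjusted p of 0.17), and for Notch under median centring (0.34, 0.059), quantile normalisation (0.33, 0.056) and only the arrays compared (0.38, 0.12), with 0.29 to 0.49 when single arrays were left out. The fall of spi with time in control embryos was lost with only the arrays compared (-0.35, 0.082) and ranged from -0.46 to -0.26 without single arrays. At its dimmer probe set Egfr passed for late Notch against control (0.46), combined against control (0.60) and combined against Ras (0.49). The Notch call there was lost under median centring (0.41, 0.065). At the brighter probe set combined against control passed under quantile normalisation (0.49, 0.034) and the block (0.47). Without single arrays, combined against control at the brighter probe set ranged from 0.39 to 0.59 and combined against Ras from 0.24 to 0.63. At the same probe set the fall of Egfr with time in Ras embryos was lost with no filter (-0.45, 0.055), median centring (-0.45, 0.089) and only the arrays compared (-0.45, 0.18). It ranged from -0.69 to -0.30 without single arrays. Besides that call of Egfr, the replicate block brought in late combined against Notch for spi (0.36, 0.036) and the window difference of the combined effect on spi (0.47, 0.040), and changed no other call of spi or of either Egfr probe set. No called value changed sign, and 24 of 597 alternative values did so where neither fit made a call. The causes were not tested.

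Counts over all rows moved by more than 1.5 times as follows, beside those with the block given above. With only the arrays compared they were 520 (Notch late), 11 (Ras early), 22 (Ras late), 613 (combined early), 558 (combined late), 6 and 34 (combined against Notch, early and late), 351 (combined against Ras late), 1077 (late against early in Notch embryos), 4 (late interaction) and 2 (window difference of Ras). With 1 fit per window they were 75 (Ras late), 55 (combined against Notch late) and 4 (late interaction). Other settings gave 13 (Ras early, centring or the stricter filter), 21 (combined against Notch early, quantile), 2 (early interaction and window difference of Ras, stricter filter), and 22 and 15 (late interaction and window difference of Ras, no filter). With 3 arrays per group, changes as small as those of Egfr lie near the limit of the test.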
